A study of Mus musculus with 12 samples.

Results

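The genes that carry the calcium signal downstream of metabotropic glutamate receptors in cerebellar Purkinje cells were examined, 9 of the 15759 entries in the table: Plcb3, Plcb4, Itpr1, Inpp5a, Atp2a2, Atp2a3, Atp2b2, Ryr1 and Homer3. They were chosen by name, as the IP3 receptor, calcium pumps, phospholipases and partners of the pathway that are known to fall in SCA1 Purkinje cells, so a lower level in SCA1 KI is not an independent finding about the group. All 9 were among the 15369 genes that passed a filter on low values and were tested. RNA was measured in bulk from whole cerebellum and whole cortex of SCA1 KI mice and their WT littermates at 12 weeks of age, on a C57BL/6J background. SCA1 KI mice carry 154 glutamine repeats in 1 Atxn1 allele and 2 in the other, under the gene's own regulators, so every cell type that uses Atxn1 carries the mutant allele. There were 4 groups (WT cerebellum, SCA1 KI cerebellum, WT cortex and SCA1 KI cortex) with 3 libraries each. The labels give male mice, while the methods of the study speak of males and females together. Cerebellum libraries are named by the number in the table (WT 2, 4 and 6, SCA1 KI 1, 3 and 5) and cortex libraries by its letter (WT B, C and D, SCA1 KI A, E and F). Whether each library is 1 animal was not given in the sources used here, so p-values measure the spread between these libraries.

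In a Purkinje cell, glutamate from parallel fibers activates metabotropic receptors, whose G protein switches on phospholipase C beta (Plcb3 or Plcb4, depending on the cell's place in the cerebellum). The enzyme makes inositol trisphosphate (IP3), which opens the IP3 receptor Itpr1 and releases calcium from the endoplasmic reticulum. Inpp5a removes IP3, the SERCA pumps Atp2a2 and Atp2a3 refill the store, the pump Atp2b2 pushes calcium out of the cell, Ryr1 is a second release channel, and Homer3 ties the receptor to the store. Purkinje cells are the main site of degeneration in SCA1, and the same genes, Atp2b2 and Atp2a2 above all, are also used by other neurons.

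Promoters were read for motifs that the genes might share. RefSeq windows from 250 bases before to 50 after the start (GRCm38.p6) matched 7 of the 9 genes, with 11 windows. Itpr1 and Atp2a2 had no entry. The motifs searched, on both strands and with none contained in another, were GGGCGG (the GC box), AGGTCA (the half-site of nuclear receptors such as RORA, a Purkinje cell factor), and TGAATGAA and TGAATGGA (the sites of Capicua, a partner of ataxin-1). The 250 bases before the start are shown for Plcb3, which fell most in the SCA1 KI cerebellum, for Inpp5a, which was lower in both regions, and for Atp2a3, one of the members most restricted to the cerebellum. These 3 windows overlap no annotated exon. Capitals mark the motifs, as GGGCGG or CCGCCC for the GC box and TGACCT for AGGTCA on the other strand. The Plcb3 window is chr19:6969815-6970064 (minus strand), the Inpp5a window chr7:139388859-139389108 (plus strand) and the Atp2a3 window chr11:72960919-72961168 (plus strand). The RefSeq start used for Plcb3 lies inside the gene as annotated (6952325 to 6976470), so its window is not upstream of the whole gene.
Plcb3: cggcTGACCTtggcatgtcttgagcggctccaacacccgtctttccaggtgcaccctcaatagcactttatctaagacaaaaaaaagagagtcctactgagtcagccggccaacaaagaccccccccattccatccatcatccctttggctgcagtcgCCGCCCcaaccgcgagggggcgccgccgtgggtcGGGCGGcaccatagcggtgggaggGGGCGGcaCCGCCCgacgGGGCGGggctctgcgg
Inpp5a: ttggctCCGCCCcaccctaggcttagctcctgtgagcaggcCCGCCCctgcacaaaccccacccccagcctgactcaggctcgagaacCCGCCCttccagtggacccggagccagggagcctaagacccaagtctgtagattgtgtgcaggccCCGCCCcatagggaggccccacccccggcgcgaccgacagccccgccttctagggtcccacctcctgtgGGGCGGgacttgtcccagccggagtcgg
Atp2a3: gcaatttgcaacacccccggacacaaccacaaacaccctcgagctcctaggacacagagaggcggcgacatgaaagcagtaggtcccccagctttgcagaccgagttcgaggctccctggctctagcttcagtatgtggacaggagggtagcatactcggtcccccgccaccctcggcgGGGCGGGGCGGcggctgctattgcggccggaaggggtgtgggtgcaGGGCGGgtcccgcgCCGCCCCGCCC
The GC box was in 8 of the 11 windows, at least 1 for each of the 7 genes, and in 35.7% of all 32851 windows. AGGTCA was in 2 of the 11, those of Plcb3 and Homer3, and in 16.3% of all. Neither Capicua octamer was in any of the 11, against 1.30% and 1.21% of all windows. A match is a string of letters and does not show that a factor binds, nor does its absence show that none does.

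The libraries held 29520855 to 51311309 reads on genes, and each of the 9 genes had at least 211 reads in every library. Atxn1, the knock-in gene, was read in all groups. It held 3628 to 4138 normalized counts (reads divided by 1 size factor per library) in the cerebellum and 4604 to 8147 in the cortex. The limma test called it different between the genotypes in neither region. Its log2 fold change, SCA1 KI minus WT, was 0.08 ± 0.13 (SE, adjusted p = 0.837) in the cerebellum. In the cortex it was −0.31 ± 0.13 (adjusted p = 0.132), with overlapping libraries. The count does not show the repeat. Purkinje cell markers fitted the labelled tissue: Pcp2 was at 10135 ± 671 (SD, n = 3) in the WT cerebellum and 9.88 ± 16.1 in the WT cortex. Library WT 2 stood apart within the WT cerebellum. Its 6 oligodendrocyte markers summed to 266831 normalized counts, against 178046 and 198047 in the other WT libraries and 152414 to 152494 in SCA1 KI, and its 9 granule cell markers to 154607, against 210073 to 218919 in the other 5 cerebellum libraries. All 9 members were lowest in this library among the WT cerebellum. Other libraries stood at an edge of their group too: SCA1 KI cerebellum library 5 and SCA1 KI cortex library A were each lowest in 8 of the 9 genes. Library A also had the lowest astrocyte markers (123129, against 173538 and 187669 in E and F). Choroid plexus markers (4 genes) summed to 747 in SCA1 KI cerebellum library 1, against 24764 and 74635 in libraries 3 and 5. Midbrain and brainstem markers (7 genes) summed to 785 to 1017 in the WT and 218 to 273 in the SCA1 KI cerebellum, and went the other way in the cortex (241 to 339 in WT, 850 to 1761 in SCA1 KI). In the cortex, 6 astrocyte markers summed to 255281 to 265122 in WT and 123129 to 187669 in SCA1 KI, and 6 markers of cortical excitatory neurons to 83478 to 85295 and 57024 to 67339. Inhibitory neuron markers (6 genes) summed to 89682 to 91997 in the WT and 78148 to 80313 in the SCA1 KI cerebellum, and to 48497 to 52826 and 34498 to 48109 in the cortex. In the cortex 4 of 6 astrocyte, 3 of 6 inhibitory neuron and 2 of 6 cortical excitatory neuron markers were called lower, and none higher. Of all tested genes, 10.8% were called lower there. Of the 6 midbrain and brainstem markers tested, 3 were called lower in the cerebellum and 3 higher in the cortex. Of the lists for choroid plexus, endothelium, microglia and blood, 1 microglia marker was called lower in the cerebellum and 1 blood marker lower in the cortex. The part of these differences in the results that follow was not tested. In bulk RNA, fewer cells of a type and less RNA per cell cannot be told apart.

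In the WT mice, 8 of the 9 genes were higher in the cerebellum than in the cortex and Atp2b2 was lower. Across all tested genes 30.7% were higher and 31.0% lower by the same rule, an adjusted p under 0.05 with an absolute log2 fold change (LFC) over 0.25. Homer3 differed most, 39.6-fold (LFC 5.31 ± 0.09, SE), followed by Atp2a3 at 28.1-fold (LFC 4.81 ± 0.21), Inpp5a at 7.38-fold and Itpr1 at 4.55-fold. Plcb3, Plcb4 and Ryr1 were 3.73-fold, 3.42-fold and 2.85-fold higher. Atp2a2, the SERCA pump of most cells, differed by 1.33-fold (LFC 0.41 ± 0.08). Atp2b2 was 1.26-fold lower in the cerebellum (LFC −0.34 ± 0.13, adjusted p = 0.0371), and this call was lost in some fits that left out 1 library (adjusted p up to 0.127). The cerebellum was sequenced for an earlier study, so region and the handling of the libraries cannot be told apart.

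Levels can be compared between genes only per length. Per kb of exon, with all annotated exons of a gene merged, Atp2a2 led in the WT cerebellum with 11116 ± 873 normalized counts. Itpr1 was next with 8762 ± 1020.1, and their libraries did not overlap. This order rests on the merged length, 6.081 kb for Atp2a2 and 18.319 kb for Itpr1. Undivided, Itpr1 held 160513 and Atp2a2 67598 counts on average, and the length of the transcripts in use was not measured. Homer3 (3541 ± 487), Inpp5a (3148 ± 364) and Atp2b2 (2999 ± 257) followed, with ranges that overlapped from each to the next. Atp2a3 (1774 to 2229), Plcb4 (1403 ± 135), Plcb3 (387 ± 33.1) and Ryr1 (82.6 ± 13.1) closed the order, each apart from its neighbours. In the WT cortex Atp2a2 (8378 ± 734) was followed by Atp2b2 (3793 ± 426) and Itpr1 (1917 ± 55.5), then by Inpp5a (416 to 435) and Plcb4 (402 to 421), which overlapped. Plcb3 (104 ± 8.32), Homer3 (88.7 ± 4.63), Atp2a3 (73.1 ± 8.90) and Ryr1 (29.0 ± 5.74) were lowest. Homer3 and Atp2a3 stood at ranks 3 and 6 in the cerebellum and at ranks 7 and 8 in the cortex.

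**Figure D1:**
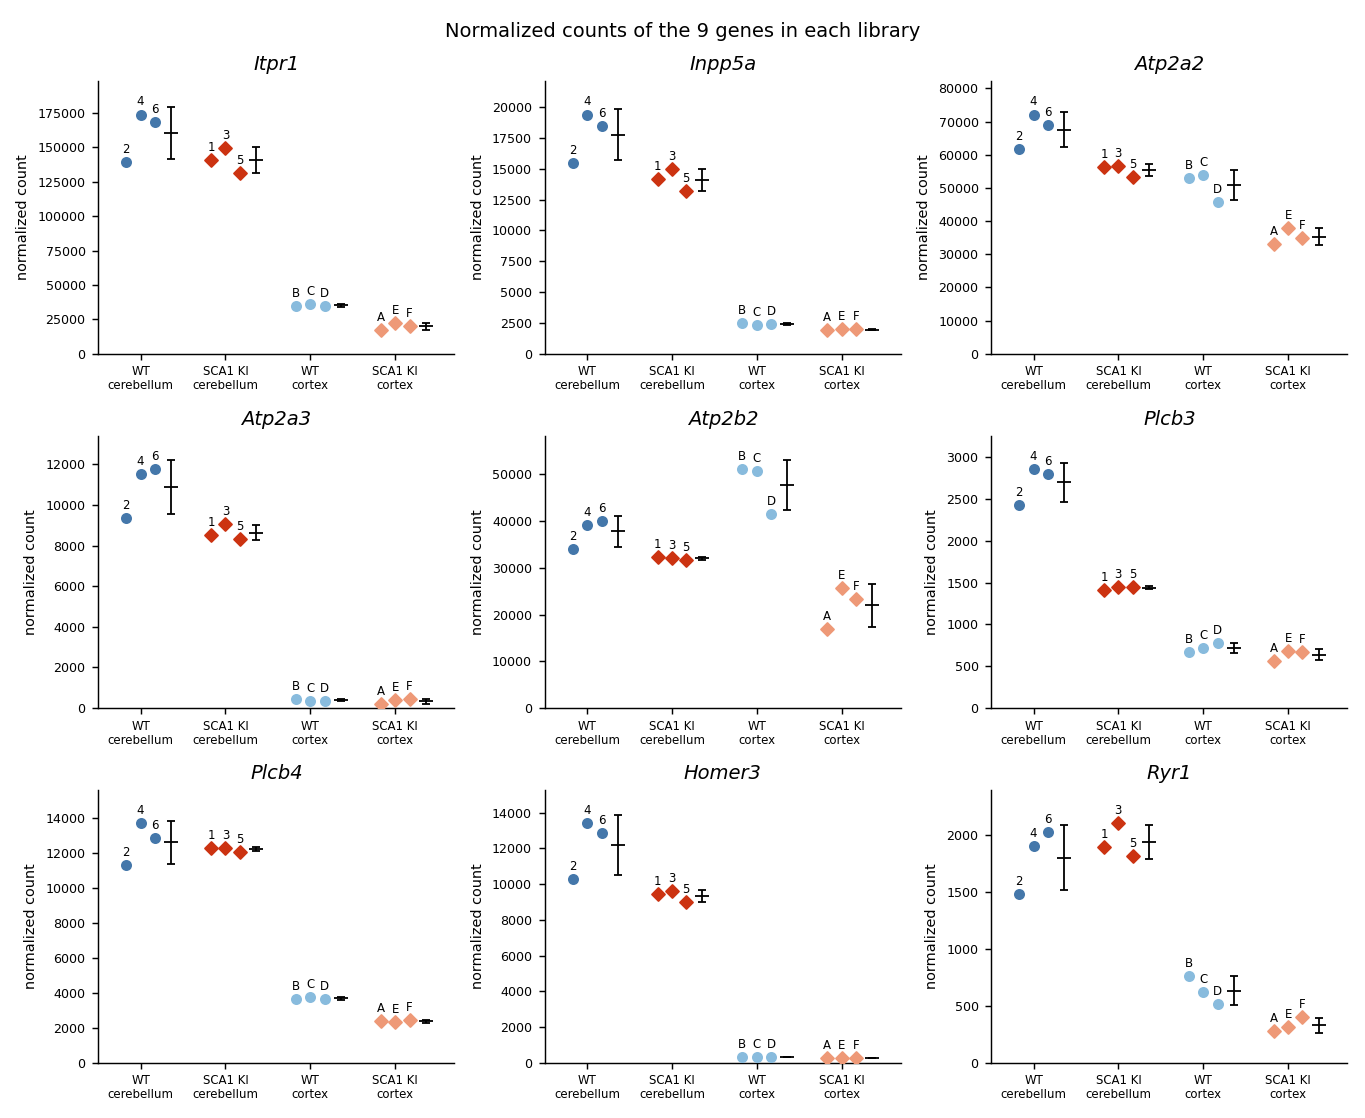
Normalized counts (linear axis from 0, a scale for each gene) of the 9 genes in 12 libraries. Points are libraries with their number or letter, circles WT and diamonds SCA1 KI, and black bars are mean ± SD (n = 3). Plcb3 separates the genotypes in the cerebellum (2433 to 2858 against 1416 to 1447), while Itpr1, Atp2b2, Plcb4 and Ryr1 separate them in the cortex by more than in the cerebellum.

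The genotype comparison asked which of these genes differed between SCA1 KI and WT mice in each region. In the cerebellum, 3 of the 9 were called lower in SCA1 KI (Plcb3, Homer3 and Inpp5a), none was called higher, and 6 did not pass. Of all tested genes, 4.44% were called lower and 0.917% higher. The median LFC of the 9 was −0.29, and of all tested genes −0.0049. In 6 of the 9 every SCA1 KI library lay below every WT library, which 17.5% of all tested genes did. In the cortex, 7 of the 9 were called lower (all but Plcb3 and Atp2a3) and none higher, against 10.8% and 4.82% of all tested genes. The median LFC of the 9 in the cortex was −0.53, and of all tested genes −0.0028. The 7 called were also the 7 whose SCA1 KI libraries all lay below WT, as did 18.0% of all tested genes. Homer3 and Inpp5a were called lower in both regions. Of all tested genes, 1.28% were called lower in both. The cerebellar count was 4 without WT library 2 (with Atp2a2 added) and 1, Plcb3 alone, without SCA1 KI library 1 or 5 or WT library 4 or 6, and also when each region was fitted on its own.

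Plcb3, on chromosome 19 from 6952325 to 6976470 (GRCm38, minus strand), is the phospholipase of the Purkinje cells in the zebrin-positive stripes. In the WT cerebellum its libraries 2, 4 and 6 held 2433, 2858 and 2799 normalized counts. SCA1 KI libraries 1, 3 and 5 held 1416, 1447 and 1445. The SCA1 KI libraries were close to each other and far below WT. Plcb3 was 1.87-fold lower (LFC −0.90 ± 0.09, SE, 95% interval −1.10 to −0.71, adjusted p = 9.18e-05), and it was called in every fit that left out 1 library. In the cortex WT libraries B, C and D held 667, 716 and 782 and SCA1 KI libraries A, E and F 564, 679 and 669. These overlapped (LFC −0.18 ± 0.09, interval −0.38 to 0.01, adjusted p = 0.200).

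Plcb4, on chromosome 2 from 135659011 to 136014593 (plus strand), is the phospholipase of the zebrin-negative Purkinje cells and is also expressed in the forebrain. Its cerebellar libraries held 11279.9, 13666 and 12811 in WT and 12244, 12268 and 12047 in SCA1 KI. The SCA1 KI values lay between the WT values (LFC −0.04 ± 0.07, interval −0.18 to 0.10, adjusted p = 0.823). In the cortex the values were 3618, 3774 and 3606 in WT and 2351, 2292 and 2431 in SCA1 KI. Plcb4 was there 1.55-fold lower (LFC −0.64 ± 0.07, adjusted p = 4.26e-05), with no overlap. The pair of paralogs therefore differed by region, Plcb3 lower in the cerebellum and Plcb4 in the cortex.

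Itpr1, on chromosome 6 from 108213096 to 108551109 (plus strand), is the IP3 receptor that Purkinje cells carry in great amount. The cerebellar libraries held 139168, 173929.5 and 168441 in WT and 141041, 149914 and 131212 in SCA1 KI. WT 2 lay below 2 of the SCA1 KI libraries, and the groups overlapped (LFC −0.19 ± 0.10, interval −0.40 to 0.03, adjusted p = 0.380). In the cortex Itpr1 held 34629, 36281 and 34428 in WT and 17419, 22203 and 20180.1 in SCA1 KI. It was 1.77-fold lower there (LFC −0.82 ± 0.10, adjusted p = 0.000155), with all SCA1 KI libraries below WT. Itpr1 made up 98.1 ± 0.174% of the IP3 receptor counts per kb in the WT and 97.6 ± 0.133% in the SCA1 KI cerebellum, and 94.7 to 95.5% and 92.7 to 93.6% over the libraries of the cortex. Its paralogs Itpr2 and Itpr3 were not called in the cerebellum (LFC 0.07 and 0.18), while in the cortex Itpr2 was called lower (LFC −0.43, adjusted p = 0.0356) and Itpr3 was not (LFC −0.26, adjusted p = 0.174).

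Inpp5a, on chromosome 7 from 139389109 to 139579652 (plus strand), ends the IP3 signal by removing a phosphate. Its WT cerebellum libraries held 15474, 19413 and 18456, and its SCA1 KI libraries 14147, 14961 and 13178. The groups did not overlap, though SCA1 KI library 3 came close to WT 2. Inpp5a was 1.26-fold lower (LFC −0.33 ± 0.08, interval −0.50 to −0.16, adjusted p = 0.0248). The cortex gave 2456, 2349 and 2392 in WT and 1919, 1968 and 1977 in SCA1 KI, without overlap and 1.23-fold lower (LFC −0.30 ± 0.08, adjusted p = 0.0189). The cerebellar call was lost without SCA1 KI library 1 or 5 or WT library 4 or 6 (adjusted p 0.0803 to 0.119) and with each region fitted on its own (0.0720). The cortical call was lost without WT library B (0.0564) and with length and GC trends removed, where the LFC of −0.24 was under the limit. Of the other genes with an Inpp5 symbol that were listed for the pathway, none was called in the cerebellum. In the cortex Inpp5d was called lower (LFC −0.36, adjusted p = 0.0201) and Inpp5f higher. Inpp5a exons overlap 246 bases of Nkx6-2, an oligodendrocyte gene on the other strand, and whether the counting used strand was not stated. Nkx6-2 itself held 365 to 416 counts in the WT and 278 to 309 in the SCA1 KI cerebellum, and was not called (LFC −0.39, adjusted p = 0.257). It was not called in the cortex either (LFC 0.17, adjusted p = 0.551). The part of Nkx6-2 reads in the Inpp5a counts was not tested.

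Atp2a2 lies on chromosome 5 from 122453513 to 122502225 (minus strand). It held 61752, 72123 and 68918 in the WT cerebellum and 56179, 56644 and 53201 in SCA1 KI. SCA1 KI was lower in 3 of 3 libraries, by 1.22-fold, and the difference did not pass (LFC −0.29 ± 0.08, interval −0.46 to −0.11, adjusted p = 0.0655). It passed without WT library 2 (LFC −0.35, adjusted p = 0.0410), without WT cortex library D (0.0462), and with length and GC trends removed (0.0152). It also passed on the recovered reads with edgeR (0.0443) and DESeq2 (0.0121). In the cortex Atp2a2 held 53049, 53974 and 45824 in WT and 33104, 37979.9 and 34786 in SCA1 KI. It was 1.44-fold lower there with no overlap (LFC −0.53 ± 0.08, adjusted p = 0.000813).

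Atp2a3, on chromosome 11 from 72961169 to 72993044 (plus strand), is the SERCA pump that Purkinje cells share with few other brain cells. It held 9367, 11505 and 11769 in the WT cerebellum and 8524, 9064 and 8340.4 in SCA1 KI. The groups did not overlap, and the interval from the fit, which uses 1 spread per gene for all 4 groups, was wide (LFC −0.33 ± 0.21, −0.78 to 0.13, adjusted p = 0.492). In the cortex it held 438, 373 and 347 in WT and 208, 401 and 435 in SCA1 KI, with overlap (LFC −0.22 ± 0.21, adjusted p = 0.539). Fitted within the cerebellum alone, the SE was 0.09 and the adjusted p 0.0703. Atp2a3 made up 15.6 ± 0.786% of the SERCA counts per kb in the WT and 15.2 ± 0.347% in the SCA1 KI cerebellum, with overlapping libraries. The muscle paralog Atp2a1 was at 25.9 ± 1.29 and 12.8 ± 4.30 counts in the cerebellum (adjusted p = 0.351). It was at 1.88 ± 1.81 in the SCA1 KI cortex, where it was called lower (adjusted p = 0.00155) on few reads.

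Atp2b2, on chromosome 6 from 113743831 to 114042613 (minus strand), is the plasma membrane pump PMCA2. It held 34111, 39255 and 40108 in the WT cerebellum and 32395, 32098 and 31722 in SCA1 KI. All SCA1 KI libraries were lower, 1.18-fold, and it did not pass (LFC −0.23 ± 0.13, interval −0.52 to 0.05, adjusted p = 0.401). In the cortex it held 51181, 50683 and 41629.8 in WT and 16922, 25679.6 and 23289.5 in SCA1 KI. That was the widest genotype difference of the 9 genes, 2.20-fold lower (LFC −1.14 ± 0.13, interval −1.42 to −0.85, adjusted p = 0.000106). Among the 4 plasma membrane pumps its share per kb was 39.0 ± 1.07% in the WT and 33.0 ± 0.246% in the SCA1 KI cerebellum, and 42.0 ± 1.53% and 28.4 ± 3.43% in the cortex, with no overlap in either region. The paralog Atp2b1 was called lower in the cortex (LFC −0.51, adjusted p = 0.000216) and stood at LFC 0.21 in the cerebellum (adjusted p = 0.0950). Atp2b3 (LFC 0.16 and −0.16) and Atp2b4 (LFC −0.28 and 0.03) were called in neither region.

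Ryr1, on chromosome 7 from 29003344 to 29125179 (minus strand), is the ryanodine receptor of skeletal muscle and of Purkinje cells. It held 1481, 1902 and 2026 in the WT cerebellum and 1898, 2102 and 1817 in SCA1 KI, with overlap (LFC 0.12 ± 0.16, interval −0.24 to 0.47, adjusted p = 0.802). In the cortex it held 765, 620.0 and 516 in WT and 275, 311 and 400.1 in SCA1 KI. All SCA1 KI libraries were lower, 1.92-fold (LFC −0.94 ± 0.16, adjusted p = 0.00169). Of 5 skeletal muscle markers, 3 were in the table and summed to 415 to 504 in the WT and 230 to 339 in the SCA1 KI cortex, and to 56.4 to 71.1 in the cerebellum. Most of the sum was Acta1, at 419.6 ± 46.6 and 248 ± 47.0 in the cortex (called lower), while the other marker tested, Mylpf, did not pass (LFC 0.17, adjusted p = 0.829). Their part in the result was not tested. The brain and heart paralog Ryr2 was called lower in the cortex (LFC −0.46, adjusted p = 0.0204) although its libraries overlapped, and was at LFC 0.36 in the cerebellum (adjusted p = 0.119). Ryr3 was called in neither region (LFC 0.24 and 0.19). Ryr1 exons overlap 864 bases of Gm26604 and 50 bases of Gm44408 on the other strand, and the part of these overlaps was not tested.

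Homer3, on chromosome 8 from 70282827 to 70294361 (plus strand), links metabotropic glutamate receptors to the IP3 receptor in the Purkinje cell spine. It held 10273, 13401 and 12873 in the WT cerebellum and 9422, 9614 and 8991 in SCA1 KI. All SCA1 KI libraries were lower, 1.30-fold (LFC −0.37 ± 0.09, interval −0.58 to −0.17, adjusted p = 0.0346). In the cortex it held 321, 289 and 305 in WT and 233, 245 and 267 in SCA1 KI, 1.23-fold lower with no overlap (LFC −0.30 ± 0.09, adjusted p = 0.0441). Both calls were near the threshold. The cerebellar call was lost without SCA1 KI library 1, 3 or 5 or WT library 4 or 6 (adjusted p 0.0910 to 0.133), and with each region fitted on its own (0.0628). The cortical call was lost in 9 of the 12 fits that left out 1 library (all but those without WT library 2 or 4 or SCA1 KI library F, adjusted p up to 0.123), and with edgeR (0.0987), DESeq2 (0.0687), each region on its own (0.144) and length and GC trends removed (0.0858). Homer3 exons overlap 874 bases of Ddx49 on the other strand. Ddx49 held 871 to 1036 counts in the cortex, above Homer3, and was not called there (LFC 0.07, adjusted p = 0.628). In the cerebellum it held 694 to 716 in WT and 761 to 810 in SCA1 KI, and was not called (LFC 0.17, adjusted p = 0.309). The part of Ddx49 reads in the Homer3 counts was not tested. Among the Homer genes its share per kb was 92.4 ± 0.642% in the WT and 89.8 ± 0.316% in the SCA1 KI cerebellum, and 6.44 ± 1.58% and 8.82 ± 0.864% in the cortex. Its paralogs Homer1 and Homer2 were called lower in the cortex (LFC −0.99 and −0.44) and not in the cerebellum (LFC 0.04 and 0.19).

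**Figure D2:**
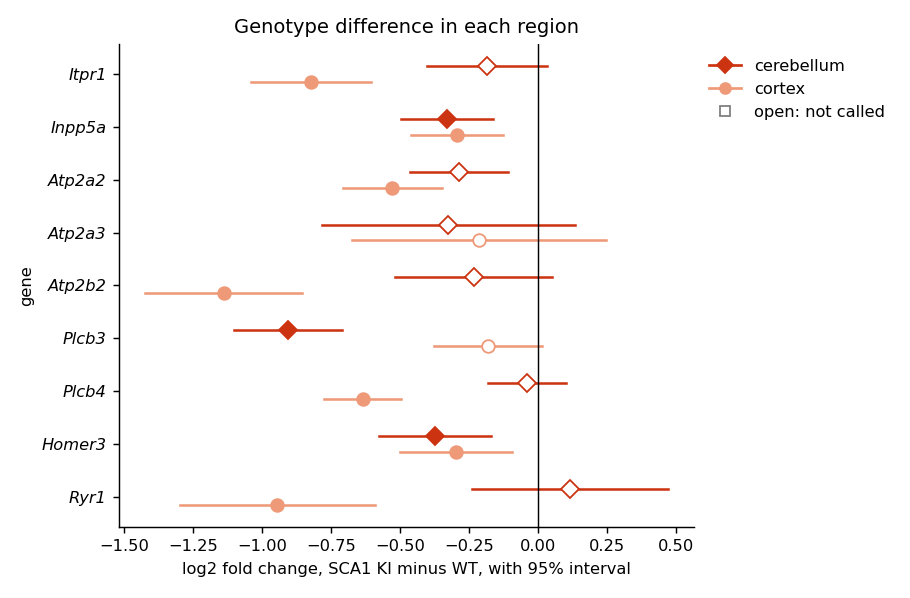
LFC of SCA1 KI minus WT (x axis, log2) for each gene (y axis), diamonds for cerebellum and circles for cortex, with 95% intervals from limma. Filled points were called, 3 in the cerebellum and 7 in the cortex. Plcb3 lies farther left in the cerebellum (−0.90) than in the cortex (−0.18), while Atp2b2 (−1.14), Ryr1 (−0.94), Itpr1 (−0.82) and Plcb4 (−0.64) lie farther left in the cortex.

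Whether the genotype difference itself differed between regions was tested with an interaction term. It passed for 5 of the 9 genes, against 8.15% of all tested genes. Itpr1 (difference of LFC 0.64 ± 0.14, adjusted p = 0.0147), Atp2b2 (0.90 ± 0.19, 0.00974), Plcb4 (0.59 ± 0.09, 0.00201) and Ryr1 (1.06 ± 0.23, 0.0136) had the lower genotype LFC in the cortex. None of these was called in the cerebellum, where Plcb4 stood at LFC −0.04 and Ryr1 at 0.12. Plcb3 was lower by more in the cerebellum (−0.72 ± 0.13, adjusted p = 0.00431). Inpp5a (−0.03, interval −0.27 to 0.20), Homer3 (−0.08, −0.36 to 0.21), Atp2a3 (−0.11, −0.76 to 0.54) and Atp2a2 (0.24, −0.01 to 0.49) did not pass, and for Atp2a3 the interval leaves room for a wide difference in either direction. The 5 calls held in each of the 12 fits that left out 1 library.

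In the cerebellum Purkinje cell markers were lower in sum in every SCA1 KI library. The sum over 11 Purkinje markers was 151520 to 182648 in WT and 121383 to 134697 in SCA1 KI, and their median LFC was −0.30. Astrocyte markers were lower in sum too (149250 to 161767 in WT, 131294 to 136678 in SCA1 KI), with a median LFC of −0.30 and 1 of 6 called lower. So were oligodendrocyte markers (178046 to 266831 and 152414 to 152494), with a median LFC of −0.47 and none of 6 called. Microglia markers were lower as well (3073 to 4270 and 2840 to 2998, median LFC −0.22). Granule cell markers overlapped in sum, with a median LFC of 0.15. Genes listed as markers of cortical excitatory neurons were higher in sum (13718 to 18883 and 20131 to 22077). Their median LFC was only 0.05, with single genes from −0.68 to 0.58, and 1 of 6 was called higher. Of the 11 Purkinje markers, Rgs8 (LFC −0.62) and Foxp2 (LFC −0.84) were called, both lower. Each of the 9 genes was also set against the mean log2 level of the 11 markers in the same library, a ratio in which the size factor nearly cancels. That mean was itself lower in SCA1 KI, at 12.10 to 12.21 against 12.35 to 12.59 in WT. A gene whose level does not change is therefore higher in SCA1 KI by this ratio. Plcb3 remained lower: its log2 ratio was −1.11, −1.10 and −1.14 in WT and −1.69, −1.71 and −1.60 in SCA1 KI, a difference of −0.55. Ratios of Inpp5a (difference 0.03), Atp2a3 (0.03) and Homer3 (−0.02) overlapped between the genotypes. Ryr1 (0.47), Plcb4 (0.31), Itpr1 (0.17), Atp2b2 (0.12) and Atp2a2 (0.07) were higher in all SCA1 KI libraries relative to the markers. With 3 libraries against 3 an exact permutation test (2-sided) cannot go below p = 0.1, which it reached for these 6 genes. The share of all tested genes that reach it was not computed. Against Pcp2 and Calb1 alone, Plcb3 was again lower (−0.56), and Itpr1, Plcb4 and Ryr1 again higher in all SCA1 KI libraries, while Atp2b2 and Atp2a2 overlapped.

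**Figure D3:**
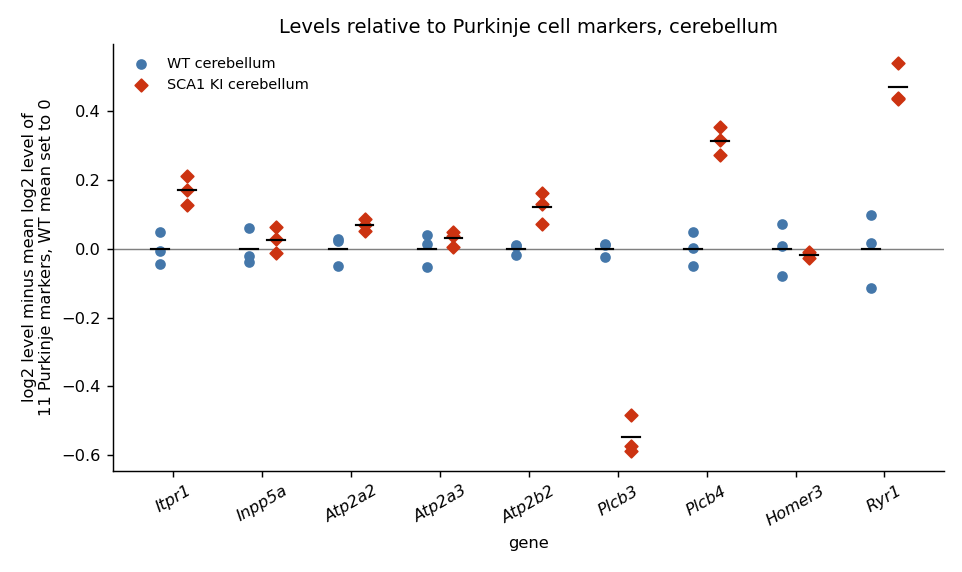
Log2 level of each gene (x axis) minus the mean log2 level of 11 Purkinje cell markers in the same cerebellum library, with the WT mean of each gene set to 0 (y axis, log2). Circles are WT and diamonds SCA1 KI libraries, 3 each, and black lines are means. Plcb3 lies below by 0.55 and Ryr1 and Plcb4 above by 0.47 and 0.31, while the libraries of Inpp5a, Atp2a3 and Homer3 overlap. The marker mean was itself lower in every SCA1 KI library.

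Within the phospholipase C beta family the make-up changed in the cerebellum. Plcb3 gave 17.1 ± 0.348% of the family's counts per kb in WT and 9.88 ± 0.304% in SCA1 KI, with no overlap. Plcb4 gave 61.8 ± 1.72% and 65.0 ± 0.935%, also with no overlap. Without division by length Plcb4 gave 61.1 ± 1.99% and 62.7 ± 1.11%, means closer than the WT SD. Its higher share therefore rests on the exon lengths used. Plcb3 without division by length gave 13.1 ± 0.319% and 7.39 ± 0.252%. In the cortex Plcb3 gave 4.77 ± 0.409% in WT and 6.60 ± 0.458% in SCA1 KI, with no overlap. Plcb1, the main phospholipase C beta of the cortex, went there from 18234 ± 216 to 11258 ± 509 counts (LFC −0.70, adjusted p = 1.43e-05). Plcb1 was not called in the cerebellum (LFC 0.14, adjusted p = 0.243), and Plcb2, at 26.1 to 39.2 counts on average in the cerebellum, was called in neither region (adjusted p = 0.0802 and 0.665). No test was made on the shares.

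**Figure D4:**
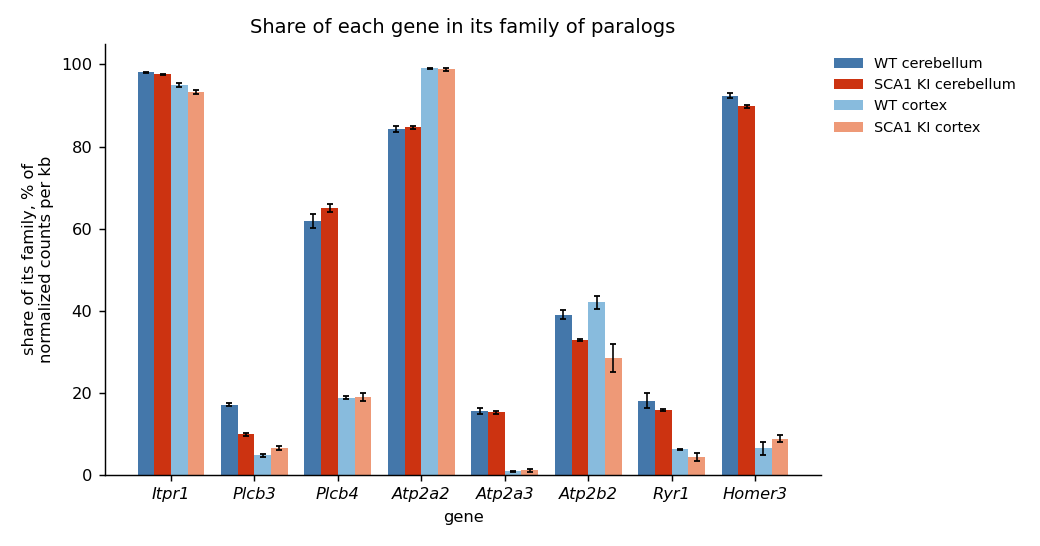
Share of each gene in the summed normalized counts per kb of its family of paralogs (y axis, %, bars from 0) in the 4 groups, as mean ± SD (n = 3). Plcb3 drops from 17.1% to 9.88% in the cerebellum and Atp2b2 from 42.0% to 28.4% in the cortex, while the shares of Atp2a2 and Atp2a3 overlap between the genotypes.

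Other genes of the pathway were listed by role, 71 in all, and 70 were tested. In the cerebellum 4 were called lower and none higher, with a median LFC of −0.08, a share near the 4.44% of all tested genes called lower. Among them were Grm5, a metabotropic glutamate receptor of forebrain neurons, which fell from 1959 ± 690.2 to 586 ± 26.7 counts (LFC −1.68, adjusted p = 0.000192), Dagla, which makes the endocannabinoid 2-arachidonoylglycerol (LFC −0.68, adjusted p = 0.000444), and Jph2, a junction protein at 30.2 ± 8.18 and 15.4 ± 1.56 counts (LFC −0.90, adjusted p = 0.0414). Car8, which binds the IP3 receptor, stood at LFC −0.29 (adjusted p = 0.328) and was called lower in the cortex (LFC −0.50, adjusted p = 0.0306).

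In the cortex 21 of the 70 were called lower and 2 higher, with a median LFC of −0.15, against 10.8% and 4.82% of all tested genes. Among those with the smallest p-values were Plcb1, Itpka, a kinase of IP3 (7325 ± 997 to 2794 ± 313 counts, LFC −1.39, adjusted p = 2.61e-05), Dagla (LFC −0.86, adjusted p = 3.28e-05), Atp2b1, the scaffolds Shank1 (LFC −0.93) and Shank3 (LFC −0.68), and the junctophilin Jph3 (LFC −0.44). All 5 other Homer and Shank genes were called lower in the cortex and none of the 5 in the cerebellum. None of the 8 genes of the endoplasmic reticulum lumen, such as Calr and Hspa5, was called in either region, and none of the 4 tested genes for receptors and G proteins was called in the cortex. Inpp5f, a phosphatase (LFC 0.27, adjusted p = 0.00773), and Fkbp1b, which binds ryanodine receptors (LFC 0.53, adjusted p = 0.0475), were higher. Dagla was called lower in both regions.

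Over the 6 cerebellum libraries, the genes outside the 9 whose log2 levels were most like those of Itpr1 were Plekhf1 (Pearson r = 0.996), Pde5a (0.995), Pcsk6 (0.991), Wiz (0.988) and Cerk (0.987). Pde5a went from 5515 counts on average in WT to 4774 in SCA1 KI and Pcsk6 from 4792 to 4123. These libraries share genotype and the low WT library 2, so the values are a description of them.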

How the data were processed

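Poly-adenylated RNA of whole cerebellum and cortex was sequenced by the authors as paired ends, aligned with STAR to mm10, counted per gene with featureCounts and normalized with DESeq2 (versions not given in the sources used here). The deposited table holds this normalized count as its signal, a read number divided by a size factor per library. In every library 100% of values were whole reads (within 0.1 read), which were recovered for count tests. The column names show each library's group but not which labelled replicate it is.

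Here log2(normalized count + 1) was fitted with limma 3.58.1 (trended empirical Bayes, in R 4.3.3) on 12 libraries with 4 group means, for 15369 genes with a mean of at least 10. A fold change on this scale understates that of low genes. Adjusted p are Benjamini-Hochberg values over all genes tested, and a gene was called where its adjusted p was under 0.05 and its absolute LFC over 0.25 (no LFC limit for the interaction). Gene positions, exon lengths and overlaps are from GENCODE vM21 (GRCm38), which matched 14978 of 15758 symbols. Alternatives were other pseudocounts, filters, scalings and limits, edgeR 4.0.16 and DESeq2 1.42.0 on recovered reads, removal of length and GC trends, each region alone, and each library left out. The fit was also run on simulated counts, and the outcome is not reported here. Those counts had no region difference and no library set apart, so they cannot show how such features affect the calls.

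The 9 genes, the 71 pathway genes and 12 marker lists were chosen with earlier results of these data known. Named from the pathway list were called genes with the smallest p, at most 8 per region and direction, and paralogs of the 9, with other genes of the list named after their values were seen (Car8, Calr and Hspa5). Some genes of the list are counted but not reported by name here. Named by r were the 5 genes most like Itpr1. A search of protein motifs in the 9 genes was planned and not run, as protein sequences were not used here.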

Additional observations from a re-analysis of the deposited data

Results flagged for a closer look

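The genotype difference differed between cerebellum and cortex for 5 of the 9 genes by the interaction term of the limma fit (SCA1 KI minus WT in cerebellum, minus the same in cortex). The difference of LFC was 0.64 for Itpr1 (adjusted p = 0.0147), with SCA1 KI lower than WT in 3 of 3 cortex libraries and overlapping in the cerebellum. It was 0.90 for Atp2b2 (adjusted p = 0.00974), 0.59 for Plcb4 (adjusted p = 0.00201) and 1.06 for Ryr1 (adjusted p = 0.0136), again with all 3 SCA1 KI cortex libraries below WT. It was −0.72 for Plcb3 (adjusted p = 0.00431), whose 3 SCA1 KI cerebellum libraries lay below WT. Region and the separate sequencing of the cerebellum cannot be told apart. No group had the 4 samples that a test for a single distant library needs.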

How the results depend on the processing

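No paired analysis was possible because the columns of the table are not tied to the replicate numbers of the labels. In the cerebellum the number of the 9 genes called lower was 3, and 1 (Plcb3) when each region was fitted on its own, 0 with an absolute LFC over 1, and 1 to 4 when each library was left out (1 without SCA1 KI library 1 or 5 or WT library 4 or 6, 4 without WT library 2 or WT cortex library D). In the cortex it was 7, and 1 (Atp2b2) with an absolute LFC over 1. Both edgeR and DESeq2 on recovered reads gave 4 in the cerebellum and 6 in the cortex, and other alternatives stayed within 1.5 times. The interaction gave 5 genes in all alternatives run, and the region comparison 8 higher in all but that with an absolute LFC over 1, which gave 7. Leaving out libraries turned the sign of uncalled values only: the cerebellar LFC of Plcb4 ranged from −0.12 to 0.0196 (above 0 without WT library 4) and of Ryr1 from −0.0201 to 0.21 (below 0 without WT library 2), the cortical LFC of Atp2a3 from −0.41 to 0.12 (above 0 without SCA1 KI library A), and the interaction of Inpp5a from −0.13 to 0.0317 (above 0 without WT cerebellum library 4 or SCA1 KI cerebellum library 5) and of Atp2a3 from −0.44 to 0.0861 (above 0 without SCA1 KI cortex library E or F). The cause was not tested. Of the values for single genes, 30 lost a call under an alternative and 5 gained one. Without division by length, many family shares moved by more than the spread between libraries. The mean share of Homer3 in the WT cerebellum went from 92.4% to 77.3%. That of Atp2b2 in WT went from 39.0% to 53.3% in the cerebellum and from 42.0% to 44.1% in the cortex. The order of the regions for Atp2b2 was thereby reversed. The direction of the genotype differences in mean share did not change. Genes under about 100 counts, such as Atp2a1, Jph2 and Plcb2, are limited by depth.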
